A study of Homo sapiens with 15 samples.

Results

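A set of 10 genes known as classical targets of HIF1 were examined for HIF2α and BMAL1 peaks in 786-O cells: CA9, BNIP3, PDK1, PGK1, LDHA, ALDOA, ENO1, HK2, PFKFB3 and PKM. All 10 were annotated, among 20136 protein-coding genes. A peak was given to a gene when the gene held the protein-coding transcription start site nearest to the peak summit, or when the summit lay within the gene. By this rule 14 of 1204 HIF2α peaks of shControl cells belonged to the 10 genes, with 13 of 1089 HIF2α peaks of shBMAL1 cells, 5 of 1812 BMAL1 peaks of shControl cells and 1 of 768 BMAL1 peaks of shBMAL1 cells.

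786-O is an established line of clear cell renal cell carcinoma with a defective VHL gene, in which HIF2α is stable and functional HIF1α is not made. That state of HIF1α is background that a peak list cannot check, and it is shared by every group. Cells carried a pLKO.1 lentiviral shRNA with a control sequence (shControl) or against BMAL1 (shBMAL1) and were selected in puromycin. In CUT&RUN, antibody-bound nuclease cuts out the DNA that a protein occupies, and antibodies against HIF2α or BMAL1, or a nonspecific IgG as the negative control, were used. The 15 libraries form 6 groups, with 3 HIF2α libraries in each condition and 3 BMAL1 libraries in shControl but 2 in shBMAL1 cells. For the 4 IgG libraries no peak list was used here. Each of the other groups has 1 peak list pooled over its libraries, so no value below has an error between replicates and no difference was tested.

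HIF1 and HIF2 are dimers of an oxygen-regulated α subunit with ARNT, and both read the hypoxia response element (HRE), whose core is ACGTG or GCGTG. BMAL1 pairs with CLOCK on the E-box CACGTG, which holds an HRE core on each strand. In textbook accounts HIF1 drives the enzymes of glycolysis, the kinase that inhibits pyruvate dehydrogenase and the mitophagy receptor BNIP3. HIF2 is better known in kidney cancer for growth and vessel factors.

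HIF2α peaks were called at 8 of the 10 genes in shControl cells (PDK1, PGK1, LDHA, ALDOA, ENO1, HK2, PFKFB3 and PKM), while 5.34% of all protein-coding genes had one. CA9 and BNIP3 had none. PGK1 is in each HIF2α count of this paragraph. Its peak stood on a high background, and reads of the shRNA vector were not told apart there, as given below. In shBMAL1 cells 7 of the 10 had a HIF2α peak, PDK1 having none there, against 4.71% of all genes. BMAL1 peaks were called at 3 of the 10 in shControl cells (PDK1, LDHA and HK2), against 8.99% of all genes, and at PFKFB3 alone in shBMAL1 cells, against 3.99%. Within 1 kb of a start site, 6 of the 10 had a HIF2α summit in shControl cells (PDK1, PGK1, LDHA, ALDOA, ENO1 and PKM), against 1.34% of all genes. The same count for BMAL1 was 2 (PDK1 and LDHA), against 6.06%. The 10 genes were chosen as known hypoxia targets, with earlier results of these data known. These shares thus describe them and are not a test.

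**Figure D1:**
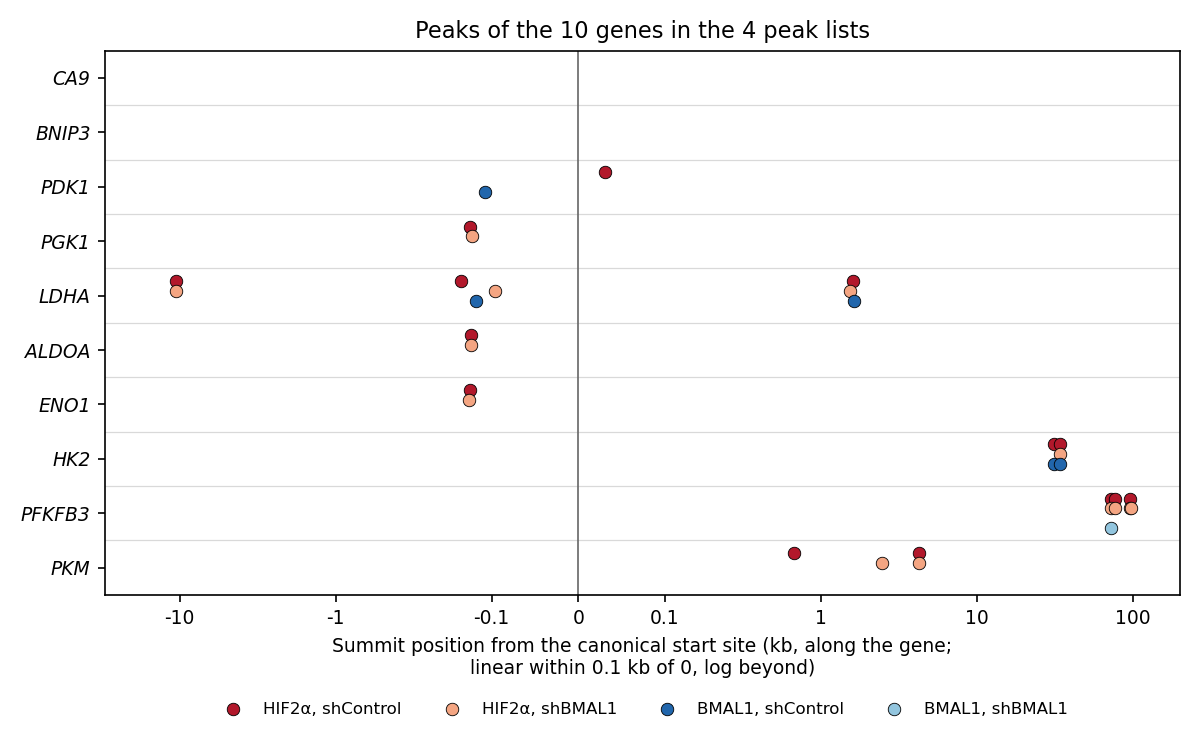
Positions of the peak summits of the 10 genes along each gene, in kb from its canonical start site (negative, upstream; linear within 0.1 kb of 0 and logarithmic beyond), with 1 point per peak coloured by list. The points of PGK1, ALDOA and ENO1 lie just upstream of the start site, those of HK2 and PFKFB3 lie more than 30 kb downstream of it, and CA9 and BNIP3 have no point.

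Further numbers are given for each peak. The fold enrichment is that of the peak caller MACS2, the fragments at the summit over the local background with 1 added to each, and −log10 p is its Poisson score. Solving both for the fragments gave a whole number at each of the 1193 HIF2α peaks of shControl cells that could be solved, so the pileup (fragments over the summit) and the background are given as well. Peaks are ranked by −log10 p within their own list. Pileups are sums over pooled libraries, and the lists were not brought to a common depth: the smallest background, shared by many peaks, was 2.03 fragments for HIF2α in shControl cells and 1.45 in shBMAL1 cells. For BMAL1 it was 1.96 and 0.834. The median pileup of the HIF2α lists was 34 and 29, and the smallest was 15 and 13. A difference of pileup between the lists therefore cannot be read as a difference of binding.

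Glucose enters the pathway through hexokinase 2 (HK2). HK2 had no peak at its start site in any list, although its promoter holds 3 HRE cores, at −229, −55 and −48 from the start. Its peaks lay deep within an intron. The first HIF2α peak of shControl cells, at chr2:75092197-75092841, had its summit 31.0 kb into the gene, a fold of 9.56 and a pileup of 38 over a background of 3.08. The second, at chr2:75095196-75095522, lay 34.1 kb into the gene with a fold of 10.8 and a pileup of 34 over 2.24. They ranked 301 and 300 of 1204. Only the second was called in shBMAL1 cells, with a fold of 5.36, a pileup of 20 over 2.92 and rank 996 of 1089. BMAL1 peaks of shControl cells overlapped both sites. At the first the BMAL1 fold was 4.72 (pileup 20, rank 1768 of 1812) and its summit lay 417 bp from that of HIF2α. At the second the fold was 7.45 (pileup 26, rank 1203) and the summits were 119 bp apart. Neither BMAL1 peak was called in shBMAL1 cells. The first HIF2α summit has no HRE core within its 200 bp. The second holds an E-box and 1 further core, and is shown as the distal site where both factors were called (hg19, plus strand, chr2:75095275-75095474; in all sequences the capitals mark HRE cores, and CACGTG is the E-box).
HK2 intron: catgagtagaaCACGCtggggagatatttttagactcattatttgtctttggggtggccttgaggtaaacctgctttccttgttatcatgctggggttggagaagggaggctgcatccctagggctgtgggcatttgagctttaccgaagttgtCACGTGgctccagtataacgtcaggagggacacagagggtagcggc

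PFKFB3 makes the activator of phosphofructokinase, the committed step of glycolysis. It had 3 HIF2α peaks in shControl cells, all beyond its 3′ end. They lay 20.9, 25.0 and 44.8 kb past the gene and 72.6, 76.7 and 96.5 kb from its canonical start. The nearest genes of any kind were the noncoding LINC02649 and the pseudogene SDCBPP1, and PFKFB3 was only the nearest protein-coding gene. The link to PFKFB3 is thus one of position.

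All 3 PFKFB3 sites were called again in shBMAL1 cells. The site at chr10:6317323-6317640 had a fold of 5.55 and a pileup of 31 over 4.76 in shControl cells, and 6.9 and 21 over 2.19 in shBMAL1 cells. The site at chr10:6321581-6321724 had a fold of 6.36 (27 over 3.4) and then 9.88 (24 over 1.53). The farthest, at chr10:6341356-6341536, had a fold of 9.09 (39 over 3.4) and then 10.5 (26 over 1.58). At each of them the shBMAL1 list gave the higher fold with the lower pileup. Another peak at chr10:6342156-6342336 was called only in shBMAL1 cells, with a fold of 9.46 and a pileup of 24 over 1.64. The single BMAL1 peak of the 10 genes in shBMAL1 cells was at the first site, at chr10:6317398-6317560, with a fold of 7.56, a pileup of 16 over 1.25 and rank 703 of 768. No BMAL1 peak was called there in shControl cells. The farthest site is shown because it holds an E-box beside another ACGTG (plus strand, chr10:6341343-6341542).
PFKFB3 distal: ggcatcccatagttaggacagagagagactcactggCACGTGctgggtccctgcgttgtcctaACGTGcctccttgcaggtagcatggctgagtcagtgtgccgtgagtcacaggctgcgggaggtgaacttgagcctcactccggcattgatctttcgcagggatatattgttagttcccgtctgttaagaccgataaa

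Aldolase A (ALDOA), which splits fructose bisphosphate, had the strongest HIF2α peak of the 10 genes by −log10 p. Its summit was 135 bp upstream of the canonical start site, in an intron of longer transcripts. In shControl cells the peak spanned chr16:30076502-30077129, with a fold of 14.9 and a pileup of 95 over 5.44, and ranked 39 of 1204. In shBMAL1 cells the fold was 20.6 and the pileup 102 over 4.01, at rank 21 of 1089. The summit was at the same base in both lists. The nearest BMAL1 peak of shControl cells lay 90.5 kb away. The sequence at the ALDOA summit has a single HRE core and no E-box (plus strand, chr16:30076846-30077045).
ALDOA promoter: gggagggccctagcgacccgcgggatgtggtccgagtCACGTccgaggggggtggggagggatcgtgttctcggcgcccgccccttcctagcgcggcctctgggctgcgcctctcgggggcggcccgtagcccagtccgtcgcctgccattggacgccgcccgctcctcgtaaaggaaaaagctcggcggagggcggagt

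Phosphoglycerate kinase 1 (PGK1), the first ATP-yielding enzyme of glycolysis, had a HIF2α peak at chrX:77359384-77359812, 138 bp upstream of its canonical start site. This peak was unlike the others. Its −log10 p of 49.5 ranked 101 of 1204, but its fold was 2.34, which ranked 1200. The pileup of 394 stood on a background of 168, the second highest of the 1193 solved peaks, whose median background was 3.85. In shBMAL1 cells the fold was 2.11 and the pileup 295 over 139, the 5th highest background of the 1083 solved peaks there. The nearest BMAL1 peak of shControl cells was 9.37 Mb away. The 50 bases at the summit occur once in the reference genome. As background, pLKO.1 vectors drive their puromycin resistance gene from a human PGK1 promoter, and all libraries here come from cells with such a vector. Reads of the vector were not told apart from reads of the gene, and their part in this peak was not tested. The PGK1 window holds 3 HRE cores (plus strand, chrX:77359507-77359706).
PGK1 promoter: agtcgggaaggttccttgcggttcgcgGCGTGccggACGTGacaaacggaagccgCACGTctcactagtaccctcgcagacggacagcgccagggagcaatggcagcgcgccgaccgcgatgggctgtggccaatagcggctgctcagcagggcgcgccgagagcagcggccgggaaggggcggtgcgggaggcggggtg

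**Figure D2:**
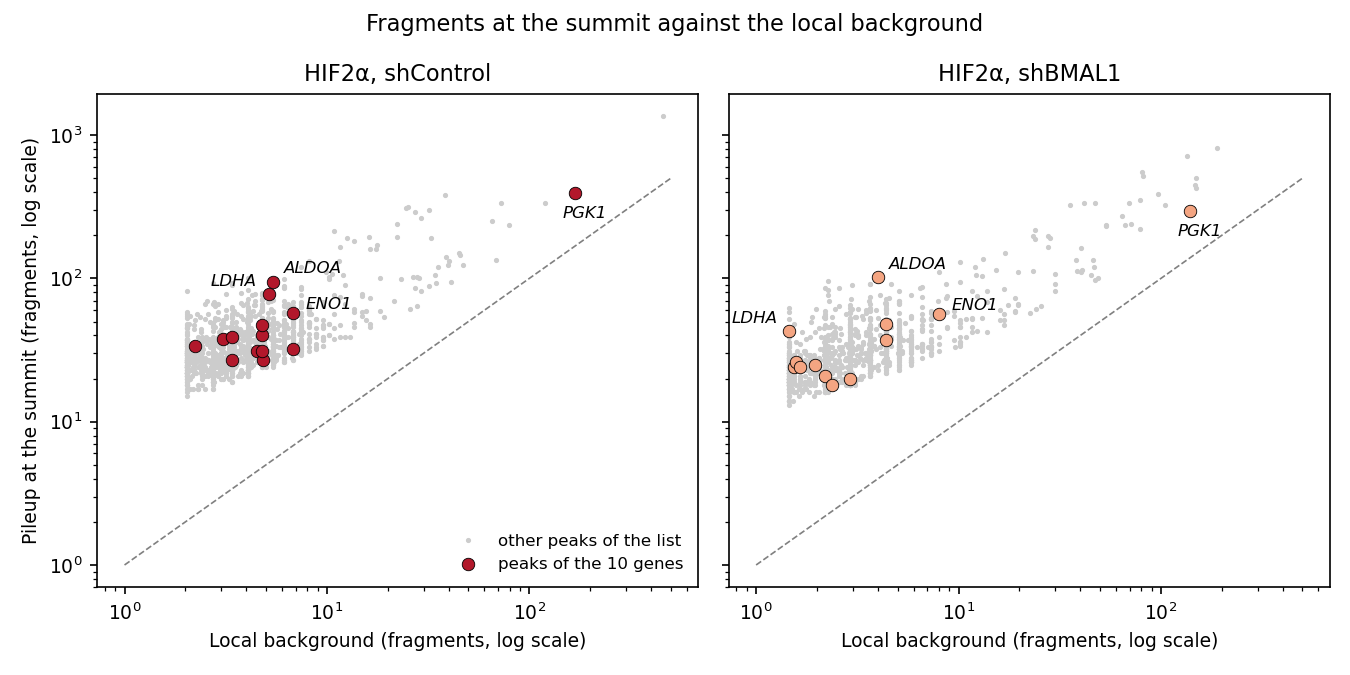
Pileup at the summit against the local background, both in fragments on log scales, for HIF2α peaks of shControl cells (left) and shBMAL1 cells (right); grey points are all other peaks with a solved pileup, coloured points are peaks of the 10 genes (strongest peak of 4 of them named) and the dashed line marks equal values. PGK1 stands apart from the other named genes at a background of 168 and 139 fragments, while ALDOA lies at the upper edge of the peaks with low background.

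Enolase 1 (ENO1) makes phosphoenolpyruvate. Its HIF2α peak at chr1:8938781-8939571 had its summit 138 bp upstream of the canonical start and 104 bp upstream of the nearest one, inside the untranslated region of a longer transcript. The fold was 7.43 with a pileup of 57 over 6.8 in shControl cells, and 6.32 with 56 over 8.02 in shBMAL1 cells. The ranks were 221 of 1204 and 244 of 1089. The antisense gene ENO1-AS1 starts nearer to the summit than ENO1 does. The nearest BMAL1 peak of shControl cells was 250 kb away. The window has 2 HRE cores, both GCGTG, and the part outside untranslated regions holds 1 of them (minus strand, chr1:8938783-8938870).
ENO1 promoter: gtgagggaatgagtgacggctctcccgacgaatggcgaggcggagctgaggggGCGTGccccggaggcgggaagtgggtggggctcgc

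Pyruvate kinase M (PKM) closes the pathway and had 2 HIF2α peaks in shControl cells, both in introns. The stronger, at chr15:72519146-72519429, lay 4.26 kb into the gene with a fold of 8.33 and a pileup of 47 over 4.76. It was called in shBMAL1 cells with a fold of 9.11 and 48 over 4.38. The weaker, at chr15:72522814-72522976 and 0.672 kb from the canonical start, had a fold of 4.23 and a pileup of 32 over 6.8, at rank 1073 of 1204, and was not called in shBMAL1 cells. A peak at chr15:72521030-72521183 was called only there, with a fold of 5.65, a pileup of 18 over 2.36 and no HRE core at its summit. PKM had no BMAL1 peak in either condition. The site called in both HIF2α lists has 1 core (minus strand, chr15:72519172-72519371).
PKM intron: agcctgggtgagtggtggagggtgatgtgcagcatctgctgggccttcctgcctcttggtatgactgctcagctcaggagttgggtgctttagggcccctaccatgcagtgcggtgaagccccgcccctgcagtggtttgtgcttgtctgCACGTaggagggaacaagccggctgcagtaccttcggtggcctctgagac

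Lactate dehydrogenase A (LDHA), which turns pyruvate into lactate, had 3 HIF2α peaks in each condition and 2 BMAL1 peaks in shControl cells. The promoter peak at chr11:18415822-18416228 had a fold of 12.8, a pileup of 78 over 5.19 and rank 63 of 1204. In shBMAL1 cells its fold was 17.9, with a pileup of 43 over 1.46 and rank 107 of 1089. The fold was thus higher in shBMAL1 cells while pileup and rank were lower. The BMAL1 peak of shControl cells there, at chr11:18415912-18416069, lay wholly within the HIF2α peak, with summits 31 bp apart. Its fold was 5.82, its pileup 33 over 4.84 and its rank 1243 of 1812.

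A second LDHA site lay 1.6 kb into the gene, 110 bp upstream of an internal start site. HIF2α there had a fold of 4.82 (27 over 4.81, rank 1072) in shControl cells and 8.81 (25 over 1.95, rank 486) in shBMAL1 cells. BMAL1 had a fold of 4.95 (27 over 4.66, rank 1622), with its summit 29 bp from that of HIF2α. The third site lay 10.6 kb upstream of the gene, nearest to the microRNA gene MIR3159. It had a HIF2α fold of 7.11 and then 7.07, no BMAL1 peak and no HRE core. Neither BMAL1 peak of LDHA was called in shBMAL1 cells. The promoter window holds 2 E-boxes and 1 further core, the most cores of any HIF2α summit of the 10 genes in shControl cells (plus strand, chr11:18415854-18416053).
LDHA promoter: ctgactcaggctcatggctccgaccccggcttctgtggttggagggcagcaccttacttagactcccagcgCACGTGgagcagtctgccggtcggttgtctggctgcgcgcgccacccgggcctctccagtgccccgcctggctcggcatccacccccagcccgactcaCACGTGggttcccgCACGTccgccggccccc

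PDK1, which here is pyruvate dehydrogenase kinase 1, inhibits pyruvate dehydrogenase. Among all deposited peaks it was the only one of the 10 genes with a HIF2α call in shControl but not in shBMAL1 cells. Which gene this was depended on the threshold: among peaks with a −log10 q of at least 10 it was PDK1 and HK2. Among peaks with a −log10 p of at least 20, and in lists of equal length, PDK1 had no call in shControl cells either and the gene was HK2. The HIF2α peak at chr2:173420775-173420923 had its summit 31 bp past the canonical start, a fold of 5.8 and a pileup of 31 over 4.52, at rank 803 of 1204. A BMAL1 peak at chr2:173420562-173420793 had a fold of 5.59, a pileup of 28 over 4.19 and rank 1450 of 1812. The peaks shared 19 bp and their summits were 141 bp apart. Neither peak was called in shBMAL1 cells, where the nearest HIF2α summit was 137 kb away. Peaks with smaller pileups than these were called in each shBMAL1 list, and no value below the threshold is given in a peak list. The HIF2α window has 2 cores side by side, given with the bases around them (plus strand, chr2:173420800-173420824).
PDK1 start: cCACGTccctCACGTaccactcggc

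CA9, a cell-surface carbonic anhydrase that helps to set pH and a marker of clear cell tumours, had no peak in any list. The nearest HIF2α summit was 16.0 kb upstream at the noncoding RNA gene RMRP, with a fold of 8.0 in shControl cells (56 over 6.12) and 8.0 in shBMAL1 cells (42 over 4.38). The nearest BMAL1 summit was 69.6 kb upstream in shControl cells and 558.0 kb in shBMAL1 cells. BNIP3, the mitophagy receptor, had no peak in any list either. Its nearest HIF2α summit was 4.84 Mb away in shControl cells and 5.65 Mb in shBMAL1 cells. The nearest BMAL1 summit was at JAKMIP3, 177.0 kb upstream, in both.

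Both genes carry HRE cores in their promoters. Within 250 bases upstream to 50 bases downstream of the canonical start, all 10 genes had a core, as did 56.7% of 19514 promoters. ACGTG was present in 8 of the 10, against 23.3% of promoters. An E-box was present in 3 (BNIP3, LDHA and PFKFB3), against 8.76%. The CA9 core lies at −18 from the start (plus strand, chr9:35673897-35673921). BNIP3 has 6 core matches between −143 and −104, 2 of them in 1 E-box (minus strand, chr10:133795472-133795677). They are shown because no peak of either factor was called over them. A match of letters is not a site, and a locus without a call may hold signal under the threshold.
CA9 start: gtttccaatgCACGTacagcccgta
BNIP3 promoter: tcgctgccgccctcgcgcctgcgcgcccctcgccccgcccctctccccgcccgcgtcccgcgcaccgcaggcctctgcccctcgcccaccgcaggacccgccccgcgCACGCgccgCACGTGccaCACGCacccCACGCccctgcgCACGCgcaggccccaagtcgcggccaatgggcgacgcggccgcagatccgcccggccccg

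Over all 14 HIF2α peaks of shControl cells, 11 overlapped a HIF2α peak of shBMAL1 cells (78.6%), against 57.7% of the whole list. The 95% Wilson interval was 52.4% to 92.4%, a counting error only, which treats peaks of the same gene as independent. The 3 peaks without an overlap were those of PDK1, the first HK2 site and the weaker PKM site. Stronger peaks were called again more often in the whole list, where 229 of the 241 strongest by −log10 p were, and in the next 4 groups of that size by rank the share was 76.3%, 53.9%, 36.1% and 27.1%. The 10 genes had 4 of 4, 4 of 5, none, 2 of 3 and 1 of 2 called again in these 5 groups, with no peak at all in the third. Of 13 HIF2α peaks in shBMAL1 cells, 2 overlapped no shControl peak, at PFKFB3 and PKM, while 36.1% of that list did not. At the 11 shared sites the pileup was lower in shBMAL1 cells at 9 and the fold was higher at 7. Among all HIF2α peaks of shControl cells with exactly 1 partner, the pileup was lower in shBMAL1 cells in 66.2% of 680 and the fold higher in 51.0% of 692.

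**Figure D3:**
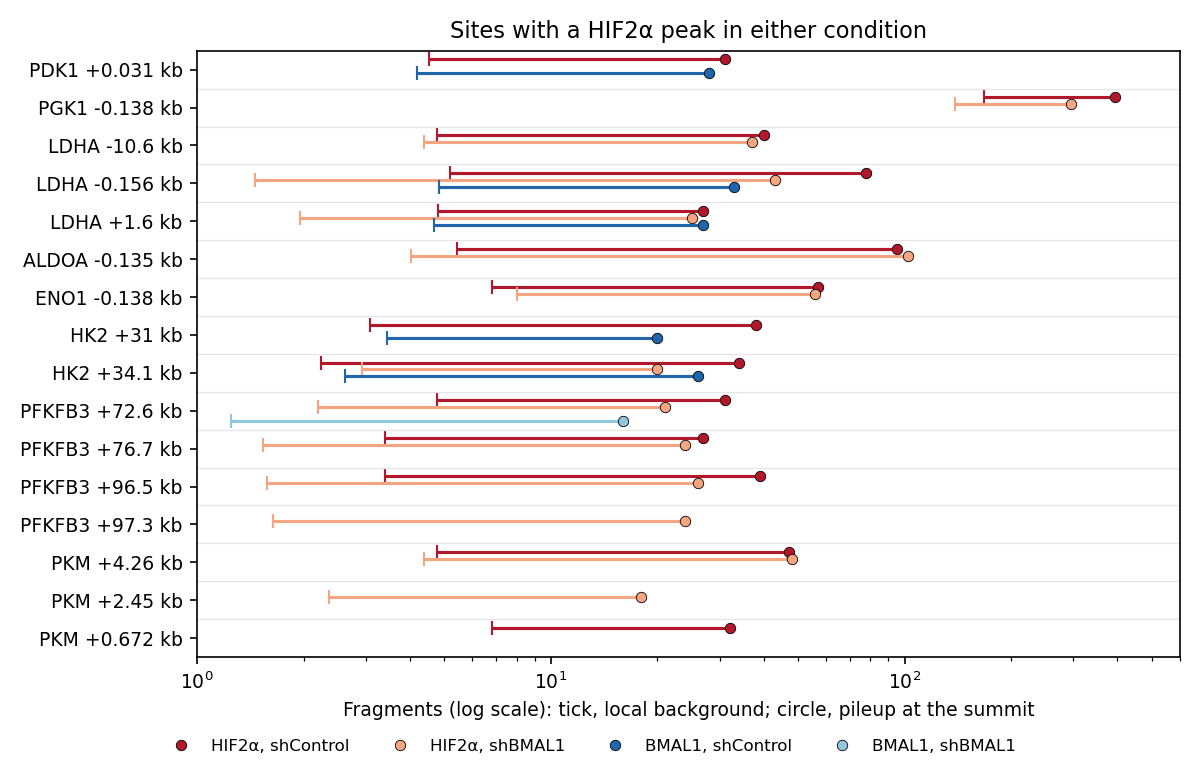
Sites with a HIF2α peak of the 10 genes in either condition, named by gene and distance from the canonical start site, with the local background (tick) and the pileup at the summit (circle) in fragments on a log scale for each list that called the site. PDK1, HK2 at +31 kb and PKM at +0.672 kb lack the shBMAL1 HIF2α line, and BMAL1 lines of shControl cells appear at PDK1 and at 2 sites each of LDHA and HK2.

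BMAL1 overlapped 5 of the 14 HIF2α peaks of shControl cells (35.7%, 16.3% to 61.2%), against 27.9% of the list: those of PDK1, 2 of LDHA and both of HK2. Counted from BMAL1, all 5 of its peaks at these genes overlapped a HIF2α peak, against 18.5% of the BMAL1 list. None of the 5 was called in shBMAL1 cells (upper Wilson limit 43.4%), against 38.7% of the list. They were weak BMAL1 peaks, with a median −log10 p of 14.7 beside 22.6 for the list, and none lay above the list median. The HIF2α peaks had a median −log10 p of 28.3 beside 19.5, with 9 of 14 above the list median. Of the 5 sites with both factors, 3 were still called for HIF2α in shBMAL1 cells, against 60.4% of the 336 such sites of the whole list.

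**Figure D4:**
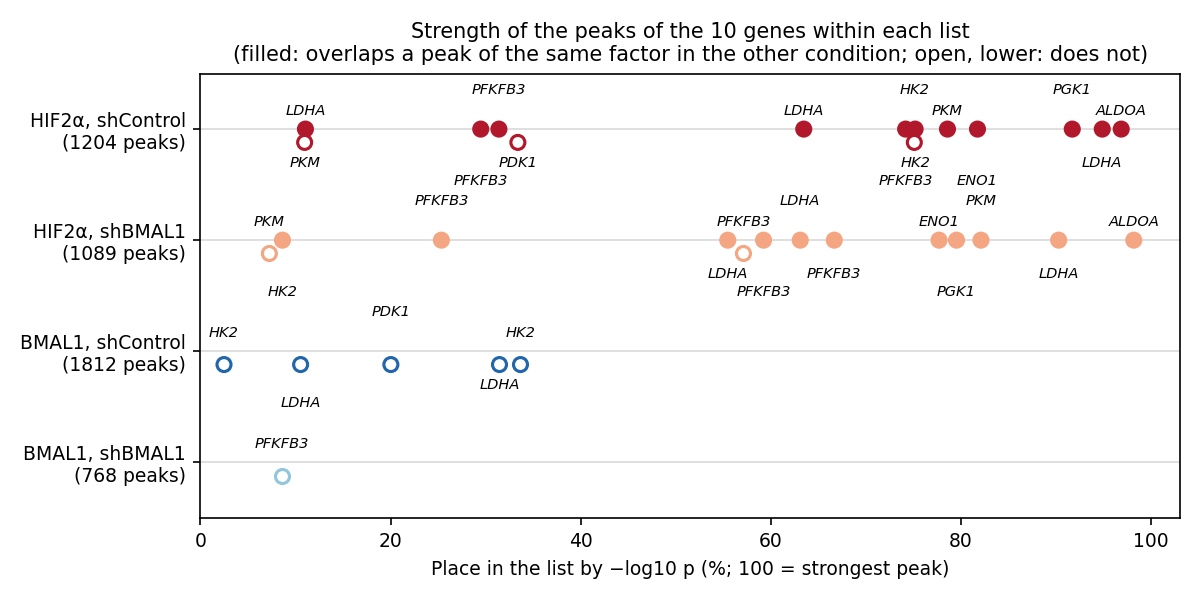
Place of each peak of the 10 genes in its own list by −log10 p, in percent with 100 the strongest, 1 row per list; filled points overlap a peak of the same factor in the other condition and open points do not. HIF2α peaks of shControl cells spread over the list with PGK1, LDHA and ALDOA near the top, while all 5 BMAL1 peaks of shControl cells lie in the weaker part.

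An HRE core lay in the 200 bp at 12 of the 14 HIF2α summits of shControl cells, against 70.8% of the list. Both exceptions, the LDHA site upstream of the gene and the first HK2 site, are distal. The E-box was found at 3 of 14 (LDHA promoter, second HK2 site and farthest PFKFB3 site), against 6.81%. The AP-1 site TGACTCA or TGAGTCA was found at 5, against 27.5%, and the GC box GGGCGG at 7, against 18.4%. These shares of the list take peaks near and far from start sites together and were not matched to the 14 for distance. At the BMAL1 summits of shControl cells all 5 windows had a core and 2 had an E-box, in lists where 58.1% and 12.9% did.

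The rest of the pathway was read from lists of other genes. Of 25 other glycolysis and lactate genes, HIF2α was called at the same 6 in each condition: GAPDH, GPI, PFKFB4, PFKP, SLC2A1 and SLC2A3. The shares of all genes were 5.34% and 4.71%. BMAL1 was called at 3 of the 25 in shControl cells (PFKFB4, PFKP and SLC2A1), against 8.99% of all genes, and at PFKFB4 in shBMAL1 cells, against 3.99%. PFKFB4, a relative of PFKFB3, had its HIF2α summit at −238 bp from a start site with a fold of 10.6 in shControl cells and 9.57 in shBMAL1 cells. BMAL1 was called there in both conditions, with folds of 8.59 and 6.69, which was the case for none of the 10 genes. GPI, the isomerase that follows hexokinase, had a HIF2α fold of 6.59 and 14.1 at its start site, with pileups of 37 over 4.76 and 38 over 1.76. PFKP, a phosphofructokinase, had 4 HIF2α peaks in each condition, and 2 BMAL1 peaks of shControl cells, with folds of 6.09 and 5.01, overlapped HIF2α peaks there. The PFKP HIF2α summits of shControl cells lay −84.8, −19.1, −9.17 and 2.82 kb from the nearest start site, and that of SLC2A3 lay at −34.7 kb. GAPDH had 2 HIF2α peaks in each condition. The glucose transporter gene SLC2A1 had 4 HIF2α peaks in each condition, the strongest with a fold of 13.9 and then 11.6, and 1 BMAL1 peak in shControl cells with a fold of 5.37.

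For the next lists the same shares of all genes apply, 5.34% and 4.71% for HIF2α and 8.99% and 3.99% for BMAL1, and in lists this short a count of 0 or 1 is near them. None of 10 other genes of pyruvate dehydrogenase control had a HIF2α peak, and PDP2, a pyruvate dehydrogenase phosphatase, had a BMAL1 peak with a fold of 4.88 in shControl cells. Of 12 other mitophagy genes, BNIP3L and GABARAPL1 had HIF2α calls in shControl cells. BNIP3L, the sister receptor of BNIP3, had its summit 61.0 kb from its nearest start site, with a fold of 12.2 in shControl cells and 7.87 in shBMAL1 cells. GABARAPL1 had a fold of 5.9 in shControl cells and no call in shBMAL1 cells, where PINK1 had one with a fold of 7.54. The PINK1 summit lay −19.4 kb from its nearest start site. At these distances the calls of BNIP3L and PINK1 are links of position. BMAL1 was called at the start of MAP1LC3B in both conditions, with folds of 16.9 and 13.4, and at CALCOCO2 in shControl cells with a fold of 6.28. Of 14 other carbonic anhydrase genes, CA12 had 2 HIF2α peaks in its gene region in each condition, with folds of 11.4 and 10.4 and then 12.3 and 14.4. A BMAL1 peak of shControl cells, with a fold of 7.18 and rank 1283 of 1812, overlapped the first of them. CA5B had a BMAL1 peak in both, with folds of 18.2 and 12.0.

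Beside these, the growth genes VEGFA, CCND1, TGFA and MYC carried HIF2α calls at 3 of 4 in shControl and at 2 of 4 in shBMAL1 cells, beside 5.34% and 4.71% of all genes. The VEGFA summit lay −0.404 kb from its nearest start site and was called in shControl cells only. The TGFA summits of shControl cells lay at 28.9 and −42.9 kb, and every MYC summit lay 114.0 kb or more away. The MYC calls are thus links of position. NDRG1 and SLC2A1, the latter also counted with the glycolysis genes above, were chosen as hypoxia genes with both factors. That they have HIF2α and BMAL1 peaks thus follows from the choice. Their HIF2α peaks were called in each condition and their BMAL1 peaks in shControl cells only. Differences of these genes from the 10 genes were not tested.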

How the data were processed

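Paired CUT&RUN reads of 15 libraries were processed by the authors, who aligned them to hg19 with Bowtie2 2.5.3, removed duplicates, called peaks with MACS2 2.2.9.1 and dropped peaks in blacklisted regions. A further BMAL1 library of shBMAL1 cells was left out by the authors for few reads. The deposited files are 1 peak list per antibody and shRNA, pooled over libraries, with the fold enrichment as a ratio, −log10 p and the −log10 q score per peak, as deposited by the authors. Whether IgG served as the control is not given in the sources used here. The authors state a cutoff on p, and the smallest −log10 q was 5.03 and 5.06 for HIF2α in shControl and shBMAL1 cells. For BMAL1 it was 5.02 and 5.14. The lists give no depth per library.

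Peak summits were compared with GENCODE 44 gene models and the GRCh37 sequence, which shares its coordinates with hg19, and positions count from 1. The start sites were those of protein-coding transcripts of protein-coding genes, and the canonical one is that of the Ensembl canonical transcript. Peaks overlap when they share 1 bp. The pileup k and background were solved from fold = (k + 1)/(background + 1) and the Poisson p of more than k fragments, for −log10 p up to 290, and k was called whole within 0.02. Motifs were counted on both strands in 200 bp at the summit. Intervals are 95% Wilson intervals, which treat peaks as independent although several share a gene. Python 3.11.15, pandas 2.3.3, scipy 1.17.1 and bedtools 2.31.1 were used. Assignment, overlap and pileup were checked on simulated data and against bedtools, and were right in 2000 of 2000 planted summits, 1204 of 1204 overlap calls and 530 of 530 pileups. The simulated backgrounds were all far below that of the PGK1 peak, so the pileup check does not cover it.

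The members and pathway lists were chosen with earlier results of these data known. All 10 members are named, and other pathway genes are named only where they have a peak. No differences were tested, since each group has 1 list.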

Additional observations from a re-analysis of the deposited data

How the results depend on the processing

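Assignment, peak threshold, list length, overlap and motif window were varied in 43 alternatives for 7 counts, of which 29 stayed within 1.5 times the reported count. The single-start-site assignment (4 of the 43) was added after seeing the data and moved no count. HIF2α was called at 6 to 8 of the 10 genes in shControl cells and at 5 to 7 in shBMAL1 cells. The gene with a HIF2α call in shControl cells only was PDK1 under the other alternatives, PDK1 and HK2 at −log10 q of at least 10, and HK2 alone at −log10 p of at least 20 and in lists of equal length. PFKFB3 dropped out of the HIF2α count when the summit had to lie within 10 kb of a start site or in the gene, when start sites of all biotypes competed, or when any base had to touch the gene or 1 kb upstream. The BMAL1 count in shControl cells was 0 in place of 3 at −log10 p of at least 20 and in lists of equal length (768 peaks). In shBMAL1 cells it was 0 in place of 1 under those 3 assignments, within 2.5 kb of a start site, at −log10 q of at least 10 and at −log10 p of at least 20. HIF2α peaks called in both conditions were 7 of 9 in lists of equal length in place of 11 of 14. HIF2α peaks overlapping BMAL1 were 5 of 14, but 2 with a reciprocal overlap of 50%, 2 with summits within 100 bp, 0 of 9 in lists of equal length and 3 of 12 at −log10 q of at least 10. HRE cores were present at 7 of 14 summits in 100 bp in place of 12 in 200 bp. These alternative counts are given for the 10 genes alone, without the share of all genes or peaks at the same setting. They do not show whether the 10 genes moved apart from the rest. The lists of higher threshold or equal length hold fewer peaks by construction, and the cause of the other shifts was not tested. No paired analysis was possible because each list is pooled and carries no replicate number, and for the same reason no library could be left out in turn.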
